A study of Mus musculus with 6 samples.

Results

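The transcription factors that set the identity of microglia, the resident macrophages of the brain, were followed here in microglial RNA from mice whose mothers ate either standard or low-sodium food in pregnancy. They are 9 genes, namely Sall1, Sall3, Spi1, Irf8, Mef2a, Mef2c, Runx1, Cebpa and Cebpb, and were taken by gene symbol from a table of 26789 genes, of which 26507 had a symbol. All 9 were in the table, each once, and all 9 averaged 10 or more normalized counts, the floor that left 18007 genes for testing. The question was whether these factors differed between diets in microglia of the nucleus of the solitary tract (NST), the first brainstem relay for taste, at P15. There were 3 control libraries, from C57BL/6 pups of dams on standard chow, and 3 low-sodium libraries, from pups of dams fed a sodium-restricted diet from E3 to E12 and standard chow afterwards (E3–E12 diet mice). The study's methods name no transgene or deletion for the mice of these libraries. By the study's methods each library pooled the rostral NST of 6 littermates from 1 litter, and microglia were taken with magnetic beads against CD11b. The study used both males and females throughout but does not give the sexes in each pool. The sample labels name another route, with laser microdissection, another RNA kit and other library chemistry and read length, so the way the cells were isolated cannot be settled here.

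Microglia arise from yolk sac progenitors and are held in their state by a small group of DNA-binding proteins. PU.1, the product of Spi1, opens macrophage enhancers and works with IRF8, while RUNX1 and the C/EBP proteins act from the progenitor stage onwards. SALL1 and MEF2 proteins then give enhancers opened by PU.1 their brain-specific use. Microglia that lose Sall1 are known to lower homeostatic genes such as P2ry12 and to raise genes of other macrophages, and Mef2c is known to restrain their inflammatory response.

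The values are counts per gene that the authors scaled between libraries, so the reads behind a value are not known exactly. They summed to between 9407141 and 17204618 per library. Low values lay near whole multiples of a step between 0.542 and 1.958 normalized counts, the unit that 1 counted read would be worth. The step of each library was the one that best fitted its values under 10. Of its lowest values above 0, those of a few steps, 74.01% to 87.19% then lay within 0.15 of a step of a whole multiple. Control replicate 2 stood apart, with 10640 genes listed at 0 against 3459 to 7135 in the other libraries. Of 18 microglial markers 17 were above 0 in every library, and Csf1r, the receptor for the main growth factor of microglia, lay between 48984 and 280071 normalized counts. The exception was Tyrobp, the adaptor of the receptor TREM2, which was listed at 0 in all 3 low-sodium libraries. Markers of other cells were present as well. Endothelial markers summed to 5332 to 15481 normalized counts in controls and 8310.0 to 17826 in low-sodium libraries, and astrocyte markers to 1896 to 9944 and 5096 to 13277. Choroid plexus markers reached 40082 normalized counts in low-sodium replicate 1, against 58.0 to 18942 in the other libraries, and oligodendrocyte markers reached 43761 in control replicate 1, against 4841 to 23319 elsewhere. These were the 2 libraries lowest in microglial markers. Markers of border macrophages summed to 64316 in control replicate 2 and to 8648 to 19236 in the rest.

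No factor differed between diets beyond the spread of the litters. The groups overlapped in all 9, and 0 of 9 passed an adjusted p of 0.1 (limma on log2(normalized count + 1), Benjamini-Hochberg over the 18007 genes, adjusted p = 0.9988 for each factor). Of all genes tested, 0% passed, with a smallest adjusted p of 0.2249, while 1.82% had an unadjusted p under 0.05 and 5.9% had groups that did not overlap. Mef2c was 1 of 9 factors with an unadjusted p under 0.05, and it was the factor with the widest spread. The mean log2 level was lower in low-sodium libraries for 7 of 9 factors, where 45.6% of all genes were lower, and the median difference was -0.28 against 0.09 over all genes tested. With 1 library left out that median ran from -0.51 without control replicate 1 to 0.097 without low-sodium replicate 1, and it was -0.45 without low-sodium replicate 3 and 0.0087 without control replicate 2. It stood at 0.017 when libraries were weighted by their noise (array weights), and at 0.43 when libraries were scaled to equal microglial marker levels, a scaling that moved the median of all genes to 0.76. For 7 of 9 factors the difference was smaller than 0.5 on the log2 scale, as it was for 45.3% of all genes. In pooled cells, fewer microglia in a library and less RNA of a gene per microglial cell cannot be told apart.

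**Figure D1:**
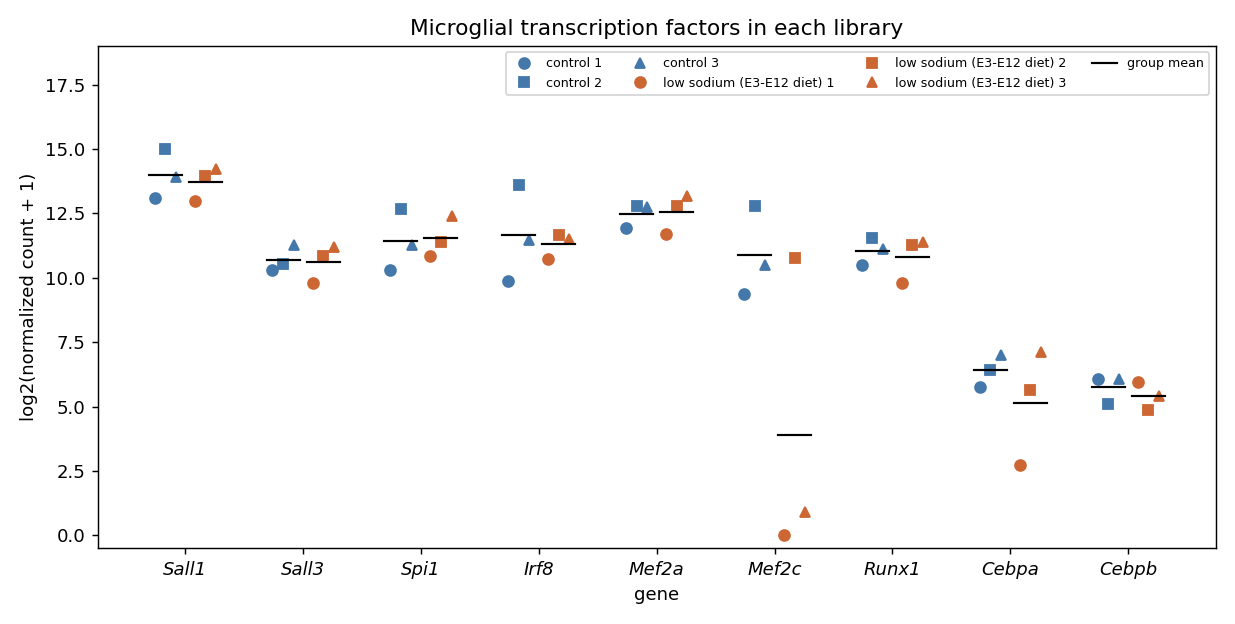
Levels of the 9 factors in each library, as log2(normalized count + 1) on the vertical axis. Symbols are single libraries (circle, square and triangle for replicates 1, 2 and 3, blue for control and orange for low sodium) and black bars are group means; the groups overlap for every gene, and 2 low-sodium libraries lie near 0 for Mef2c.

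**Figure D2:**
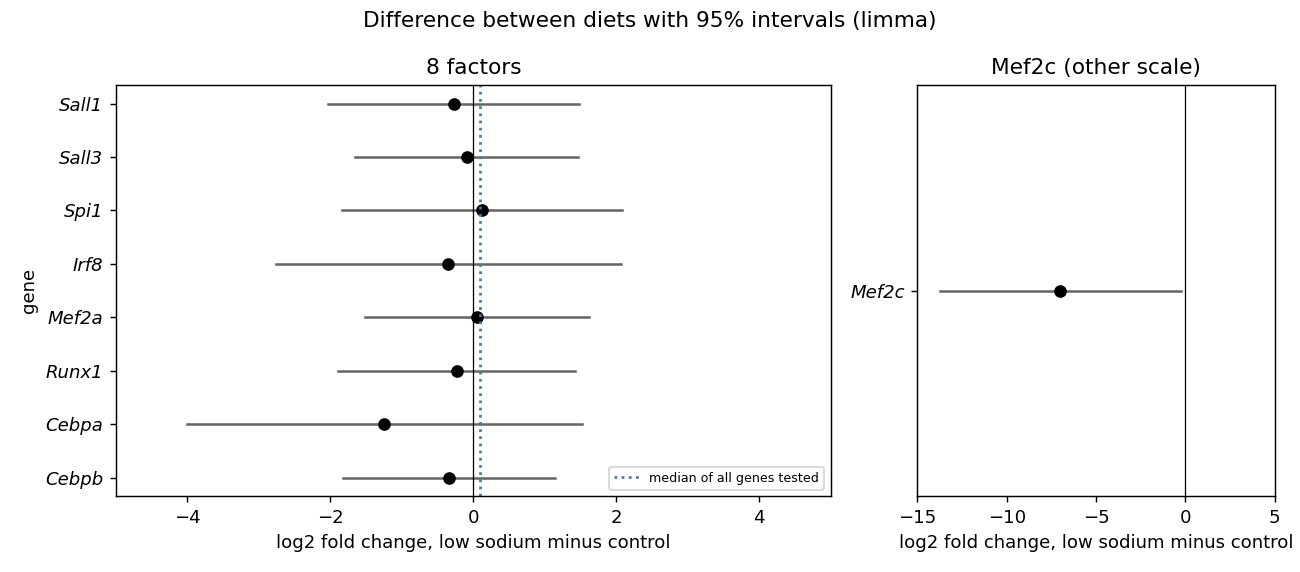
Difference between diets for each factor as the log2 fold change, low sodium minus control. Points are limma estimates, lines their 95% intervals, and the dotted line is the median of all genes tested, 0.09; the intervals of 8 factors include 0, and that of Mef2c, drawn on a scale of its own, runs from -13.76 to -0.23.

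Sall1, a zinc-finger factor that among macrophages is largely restricted to microglia, was the most abundant of the 9. The gene lies on chr8:89027235-89044162 (GRCm38, minus strand). Control replicates 1, 2 and 3 had 8654, 33150.1 and 15409 normalized counts of Sall1. The low-sodium replicates had 8062, 15943 and 19325. Control replicate 2 was far above the rest, replicate 1 of each group was lowest, and the other 3 libraries lay close together. The groups averaged 14444 ± 5779 against 19071 ± 12652 normalized counts (SD, n = 3 litters each) in low-sodium and control libraries, a log2 fold change of -0.28 (SE 0.74) with a 95% interval of -2.04 to 1.48. Its sign turned to 0.23 without control replicate 2 and to 0.097 without low-sodium replicate 1.

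Sall3, the paralog of Sall1, lies on chromosome 18 (80966376 to 80986771, minus strand). It had 1262, 1484 and 2482 normalized counts among the controls (replicates 1 to 3) and 882, 1862 and 2344 in the low-sodium replicates. Its highest library was control replicate 3, not control replicate 2, and the range over all libraries was 2.81-fold, against 4.11-fold for Sall1. The log2 fold change was -0.09 (SE 0.65), with an interval of -1.65 to 1.47. Within a library, which no scaling between libraries can alter, Sall1 exceeded Sall3 6.86, 22.3 and 6.21-fold across controls and 9.14, 8.56 and 8.24-fold in the low-sodium replicates, in normalized counts. The ratio thus lay in a narrow range in 5 of 6 libraries and was higher in control replicate 2 alone. The longest identical run between their coding sequences was 38 bases, and neither shared a 50-base window with any other annotated gene, so reads of 50 bases could be told apart.

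Spi1 encodes PU.1, the ETS factor that the macrophage lineage needs, and lies on chr2:91082390-91115756 (plus strand). Its normalized counts were 1268, 6466 and 2499 across the controls, in replicate order. In the low-sodium replicates they were 1835, 2650.3 and 5411. The lowest and the highest library were both controls, so the low-sodium group lay wholly inside the control range. The log2 fold change of Spi1 was 0.12 (SE 0.82), interval -1.84 to 2.08, and it ranged from -0.43 without control replicate 1 to 0.74 without control replicate 2.

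Irf8, whose product binds composite sites together with PU.1, lies on chr8:120736358-120756694 (plus strand). Irf8 had 936, 12500.4 and 2799 normalized counts for the controls in replicate order, the widest spread of any factor within the controls (SD of 1.88 on the log2 scale). It had 1684, 3266 and 2880.4 in the low-sodium replicates, again inside the control range. The log2 fold change was -0.35 (SE 1.01), interval -2.77 to 2.07, and it was 0.63 without control replicate 2 and -1.24 without control replicate 1. The ratio of Spi1 to Irf8 was 1.35, 0.517 and 0.893 across controls and 1.09, 0.811 and 1.88 in the low-sodium replicates, and the groups overlapped. A longer annotated gene model, Gm20388, spans Irf8 on the same strand but shares no exon base with it.

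The MEF2 factors, MADS-box proteins first known from muscle, differed from each other in how even they were across libraries. Mef2a (chr7:67231163-67372858, minus strand) had 3896, 7036 and 6925 normalized counts through control litters 1 to 3. It had 3281, 7109 and 9140.3 in the low-sodium replicates. Replicate 1 was the lowest of each group and the other 4 libraries lay above both. Its log2 fold change was 0.06 (SE 0.66), interval -1.51 to 1.62, with a sign that changed when control replicate 1, low-sodium replicate 2 or low-sodium replicate 3 was left out.

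Mef2c (chr13:83504034-83667080, plus strand) had 664, 7016 and 1446 normalized counts among the controls (replicates 1 to 3). The low-sodium replicates had 0, 1728 and 0.887. It was thus listed at 0 in low-sodium replicate 1 and at about 1 counted read in low-sodium replicate 3, while low-sodium replicate 2 lay above control replicates 1 and 3, so the groups overlapped. The log2 fold change of -6.99 (SE 2.83) rests on those 2 libraries and on the constant added before the logarithm: it was -7.48 with a constant of 0.5 and -5.05 with 10. An exact permutation test of the difference in mean log2 level, two-sided, gave p = 0.3 for Mef2c, where 3 litters against 3 cannot go below 0.1. Leaving out low-sodium replicate 2 gave -10.43 and leaving out low-sodium replicate 1 gave -5.05. Of the 2289 genes with a mean over 1000 normalized counts only 6 were listed at 0 in any library, and Mef2c was 1 of them. The others were Ash1l, Edem1, Bod1l, Bicra and Eno1b, each at 0 in other combinations of libraries.

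The 2 libraries with Mef2c at or near 0 were not low in microglial markers as a pair: the mean log2 level of 17 markers was 11.49 in low-sodium replicate 1, the lowest of all, and 13.56 in low-sodium replicate 3, the second highest. Neurons and endothelial cells are also known to make Mef2c. In those 2 libraries neuronal markers summed to 2369 and 907 normalized counts and endothelial markers to 13254 and 17826. Over all libraries the neuronal sum was between 822 and 1981 in controls and 907 and 2369 in low-sodium libraries. The mean log2 level was higher in the latter for 7 of 10 neuronal and 6 of 9 endothelial markers, as for 9796 of 18007 genes tested. Those 6 endothelial markers were each lowest in control replicate 2. So were Rbfox3, Snap25, Stmn2, Syt1 and Slc32a1 among the higher neuronal markers, but not Nefl and Gad2. Rbfox3, Syt1, Stmn2 and Slc32a1 among the neuronal markers and Ly6c1 among the endothelial ones were listed at 0 in control replicate 2, and Slc17a6 in control and low-sodium replicates 3. The part of these cells in the Mef2c values was not tested.

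Reads of Mef2a and Mef2c could be kept apart by sequence. The longest identical run between their longest annotated coding sequences was 17 bases, and 0 of 16316 windows of 50 bases in Mef2c transcripts occurred in another annotated gene (3.65% for Mef2a, spread over 212 genes). The first 120 coding bases, which encode the first part of the MADS box, the DNA-binding domain that MEF2 proteins share, are given 5′ to 3′ to show this, with the 23 bases that differ in capitals. Each run joins 2 coding exons, on chr7:67316792-67316845 and chr7:67295513-67295578 (minus strand) for Mef2a and on chr13:83575677-83575730 and chr13:83592778-83592843 (plus strand) for Mef2c, in GRCm38 with GENCODE M21 transcripts.
Mef2a: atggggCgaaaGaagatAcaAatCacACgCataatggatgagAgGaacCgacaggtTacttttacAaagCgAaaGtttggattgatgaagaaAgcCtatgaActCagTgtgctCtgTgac
Mef2c: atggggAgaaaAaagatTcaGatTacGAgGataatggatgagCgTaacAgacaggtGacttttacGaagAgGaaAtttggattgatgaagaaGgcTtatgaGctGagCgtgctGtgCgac
The 2 runs were 80.8% identical. Mef2a had 3281 and 9140.3 normalized counts in the 2 libraries where Mef2c was listed at 0 or 0.887.

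Promoters were examined because several of these factors are known to act on one another's genes. RefSeq (GRCm38.p6) gave 13 windows of 300 bases, from 250 before to 50 after a start site, for 7 factors, and none for Spi1 and Sall3. Core letters of 7 motifs were searched on both strands: GAGGAA for PU.1, TGTGGT for RUNX, TTGCNNAA for C/EBP, CTANNNNTA for MEF2, GAAANNGAA for IRF, GGAANNGAA for the PU.1-IRF composite and TGANTCA for AP-1. Of 32841 windows of all genes, 28.3%, 16.8%, 10.8%, 21%, 8.56%, 8.24% and 7.81% held them, in that order, and the PU.1 letters may overlap those of the composite. Positions written N could hold any base, so a match to these letters is not by itself a binding site. Among the 13 windows of the factors, PU.1 letters were found in 4, MEF2 letters in 3, the composite in 2, and RUNX and AP-1 letters in 1 each. In the MEF2 letters the open positions held only A and T in Mef2a (CTAAAAATA). They held C or G as well in Cebpa (CTAGCACTA) and Mef2c (CTAACGATA). C/EBP and IRF letters were in none of these windows, and Sall1, Irf8 and Cebpb windows held no match.

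The Mef2 windows are shown since Mef2c was the factor listed at 0 or near it in 2 libraries while Mef2a was not, and since both carry PU.1 letters. Capitals mark every match to the 7 motifs.
Mef2a, chr7:67372809-67373108, minus strand: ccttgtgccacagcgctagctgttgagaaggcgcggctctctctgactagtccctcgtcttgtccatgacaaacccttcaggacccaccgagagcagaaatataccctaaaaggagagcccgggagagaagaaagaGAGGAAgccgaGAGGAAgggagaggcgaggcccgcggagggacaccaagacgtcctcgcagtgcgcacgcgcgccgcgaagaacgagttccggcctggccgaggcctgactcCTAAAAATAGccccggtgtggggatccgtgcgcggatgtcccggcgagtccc
Mef2c, chr13:83503784-83504083, plus strand: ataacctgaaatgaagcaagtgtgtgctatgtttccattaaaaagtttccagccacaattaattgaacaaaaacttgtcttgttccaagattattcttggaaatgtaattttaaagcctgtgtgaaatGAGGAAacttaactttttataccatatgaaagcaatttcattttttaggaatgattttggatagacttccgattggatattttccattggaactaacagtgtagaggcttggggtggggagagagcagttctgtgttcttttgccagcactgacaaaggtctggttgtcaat
Mef2c, chr13:83523406-83523705, plus strand: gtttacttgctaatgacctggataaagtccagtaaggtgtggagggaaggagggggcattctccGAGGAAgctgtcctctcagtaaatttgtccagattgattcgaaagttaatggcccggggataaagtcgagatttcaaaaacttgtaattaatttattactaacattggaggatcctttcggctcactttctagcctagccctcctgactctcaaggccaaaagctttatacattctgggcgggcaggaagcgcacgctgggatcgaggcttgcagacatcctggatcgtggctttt
Mef2c, chr13:83573357-83573656, plus strand: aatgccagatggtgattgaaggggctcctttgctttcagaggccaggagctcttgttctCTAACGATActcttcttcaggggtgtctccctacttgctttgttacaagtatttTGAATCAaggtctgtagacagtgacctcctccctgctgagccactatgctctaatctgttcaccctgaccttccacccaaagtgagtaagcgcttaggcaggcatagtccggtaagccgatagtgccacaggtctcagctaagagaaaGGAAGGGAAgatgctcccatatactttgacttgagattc
The Mef2a window held PU.1 letters from 114 and from 103 bases before the start site and 2 overlapping matches to the MEF2 letters at the start site itself. Each of the first 2 Mef2c windows held PU.1 letters, from 122 and from 186 bases before its start site. The third Mef2c window held AP-1 and composite letters in place of PU.1 letters. It also matched the MEF2 letters, with C and G among the open positions (CTAACGATA). The table gives counts per gene, so which of the 3 starts a Mef2c read came from is not known.

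Runx1 (chr16:92601466-92826149, minus strand), a factor of blood cell formation that microglia carry from their progenitors, had 1440.4, 2976 and 2247 normalized counts across the controls, in replicate order. It had 879.8, 2487 and 2708 in the low-sodium replicates. Low-sodium replicate 1 was below every other library and the other 2 low-sodium libraries lay inside the control range. The log2 fold change of Runx1 was -0.23 (SE 0.69), interval -1.90 to 1.43, and its sign turned without control replicate 2 (0.0087) or low-sodium replicate 1 (0.29). Runx1 has 2 RefSeq start sites, and the window of the inner one is shown because it held PU.1 letters beside 2 matches to the composite, all within 55 bases before the start.
Runx1, chr16:92697280-92697579, minus strand: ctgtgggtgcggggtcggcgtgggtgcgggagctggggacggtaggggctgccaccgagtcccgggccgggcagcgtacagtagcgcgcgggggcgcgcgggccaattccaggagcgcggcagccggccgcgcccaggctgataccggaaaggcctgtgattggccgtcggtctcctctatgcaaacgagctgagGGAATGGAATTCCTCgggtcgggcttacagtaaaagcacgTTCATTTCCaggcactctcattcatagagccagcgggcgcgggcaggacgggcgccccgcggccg
The outer Runx1 window held RUNX letters 28 and 36 bases after the start, in the opposite orientation, and none for PU.1. An antisense model, Gm26626, shares 0.881% of the exon bases of Runx1 and had between 0 and 49.9 normalized counts.

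The C/EBP factors were the least abundant of the 9. Cebpa (chr7:35119293-35121928, plus strand), which directs progenitors towards the myeloid lineage, had 53.4, 85.4 and 129 normalized counts for the controls in replicate order. It had 5.67, 48.3 and 137 in the low-sodium replicates. The low value of low-sodium replicate 1 carried the difference: the log2 fold change was -1.25 (SE 1.16), interval -4.01 to 1.51, and -0.039 without that library. Low-sodium replicate 3 was the highest of all 6.

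Cebpb (chr2:167688915-167690418, plus strand), better known for inflammatory responses, had 66.7, 33.5 and 66.2 normalized counts through control litters 1 to 3. It had 61.1, 28.1 and 41.6 in the low-sodium replicates. All 6 values were low and within 2.37-fold of each other, and both replicates 2 were the lowest of their group. The log2 fold change was -0.34 (SE 0.62), interval -1.83 to 1.14. An opposite-strand gene, Tmem189, shares 20.7% of the exon bases of Cebpb and had between 109.9 and 488 normalized counts, more than Cebpb in every library, so the Cebpb value is uncertain where counting did not use strand. The ratio of Cebpa to Cebpb ran from 0.0928 to 3.297 within the low-sodium group alone.

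Divided by the length of all exons, the order of the levels was Sall1, Spi1, Mef2a, Irf8, Sall3, Runx1, Mef2c, Cebpb and Cebpa. Sall1 had a median of 2977 normalized counts per kilobase over the 6 libraries (lowest 1531, highest 6296), rank 86 of 18007 genes. Spi1 followed with 955 per kilobase, Mef2a with 475 and Irf8 with 403. Sall3, Runx1 and Mef2c had 224, 197 and 67.2 per kilobase, and Cebpb and Cebpa 34.2 and 26.3. Sall1 was above Spi1, and Spi1 above Mef2a, in 6 of 6 libraries. Mef2a exceeded Irf8 in 4 of 6, while Irf8 exceeded Sall3, Sall3 exceeded Runx1 and Runx1 exceeded Mef2c in 5 of 6. Mef2c and Cebpb, and Cebpb and Cebpa, traded places in 3 of 6, so these neighbours in the order did not differ beyond their spread. Lengths were taken over all annotated exons, which can understate a gene such as Mef2c with 31 annotated transcripts more than Sall1 with 1.

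Part of the spread between libraries was shared with other microglial genes. Whether genes of other kinds shared it to the same degree was not tested. Control replicate 2 was the highest library for 5 of 9 factors (Sall1, Spi1, Irf8, Mef2c and Runx1), and low-sodium replicate 1 the lowest for 6 of 9. The mean log2 level of 17 microglial markers, without Tyrobp, was 11.65, 13.74 and 13.44 among the controls (replicates 1 to 3) and 11.49, 12.94 and 13.56 in the low-sodium replicates. Taken relative to that mean, the range of Sall1 over the 6 libraries narrowed from 2.04 to 1.02 on the log2 scale, that of Irf8 from 3.74 to 1.93 and that of Spi1 from 2.35 to 1.504. The range of Runx1 narrowed from 1.76 to 1.145 and that of Mef2a from 1.48 to 1.24. Those of Cebpa and Mef2c narrowed from 4.37 to 2.87 and from 12.78 to 11.68. The range widened for Cebpb, from 1.22 to 3.10, and for Sall3, from 1.49 to 1.85. On this scale Sall1 had the narrowest range, and Mef2c, Cebpb and Cebpa had the widest. The differences between diets relative to the markers were 0.0057 for Sall1, 0.19 for Sall3, 0.40 for Spi1, -0.066 for Irf8, 0.34 for Mef2a, -6.71 for Mef2c, 0.05 for Runx1, -0.97 for Cebpa and -0.059 for Cebpb, and the groups overlapped in all 9. Low-sodium replicate 1, the lowest library for most factors, was also lowest in microglial markers and highest in choroid plexus markers, and control replicate 2, the highest for most, was highest in markers of border macrophages. The part of those cells in the factor levels was not tested.

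**Figure D3:**
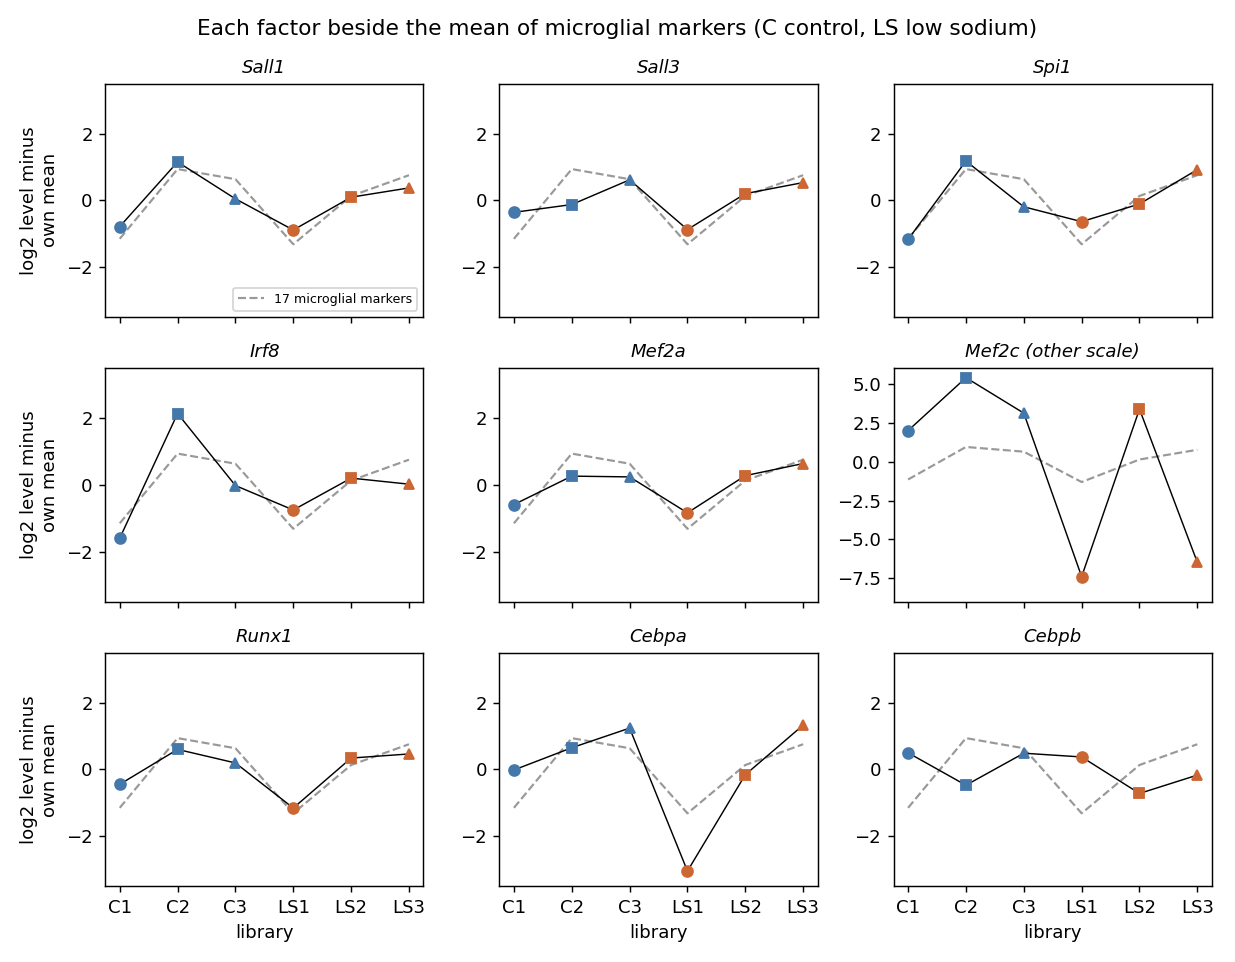
Each factor in the 6 libraries (C1 to C3 control, LS1 to LS3 low sodium), as its log2 level minus its own mean over the libraries, beside the mean of 17 microglial markers treated alike (grey dashes). Relative to the dashes Sall1 has the narrowest range (1.02), followed by Runx1 (1.145), Mef2a (1.24) and Spi1 (1.504). Irf8 overshoots them in control replicate 2, Cebpb runs its own course, and Mef2c is drawn on a wider scale.

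The genes with the most similar profile were found by the mean absolute difference of centred log2 levels over the 6 libraries, a description of shape that libraries and their depth share. For Sall1 they were Numb (0.0616), Ppp1ca (0.0639) and Sort1 (0.0655). For Spi1 they were Pip4k2a (0.121), Rac2 (0.126) and Lrrc3 (0.138), of which Rac2 encodes a small GTPase of blood cells. For Irf8 they were Abhd15 (0.163), Plekho1 (0.166) and Maf1 (0.172). Nothing came close to Mef2c, for which the nearest were Zfp638 (1.82), Mknk2 (2.1) and 0610039K10Rik (2.21). Among the factors themselves Mef2a and Runx1 were most alike (0.181), followed by Mef2a and Sall3 (0.202), and Spi1 was nearest to Sall1 (0.275).

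Other members of the same 6 protein families, which include Mef2d and the remaining interferon regulatory factors, were lower in 8 of 18 tested genes (median 0.06, 0 past the adjusted threshold). Mef2d, the third MEF2 factor of these cells, had 4423, 13000.0 and 5209 normalized counts across controls and 4601, 6775 and 9310.4 in the low-sodium replicates, and it was not at 0 where Mef2c was. The smallest unadjusted p-values of the list belonged to Mef2b, Irf7 and Spic. Spic, a PU.1 relative of red pulp macrophages, was the only 1 of 18 whose groups did not overlap, where 5.9% of all genes did not. It had 91.1, 45.9 and 85.7 against 178, 186 and 113 normalized counts and a log2 fold change of 1.12 (SE 0.59). Irf7, a regulator of interferon genes, had 21.2, 35.9 and 72.1 against 62.5, 131 and 191, a log2 fold change of 1.58 (SE 0.74). Mef2b lay between 0 and 30.4 normalized counts, and Ddit3, the most abundant of the list per kilobase, had a log2 fold change of 0.32 (SE 0.71).

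Proteins that bind the factors were lower in 14 of 18 tested genes, where 45.6% of all genes were lower, and 0 passed the adjusted threshold. Their median was -0.24, or -0.33 relative to the median of all genes tested. It was 0.0082 with array weights, and 0.47 with equal microglial marker levels, a scaling that moved the median of all genes to 0.76. Rbbp7, a histone-binding subunit of the NuRD complex that SALL proteins recruit, was the only 1 of 18 whose groups did not overlap, where 5.9% of all genes did not. It had 468, 244 and 359 against 117, 158 and 173 normalized counts (log2 fold change -1.23 (SE 0.57)). Cbfb, the partner that RUNX1 needs to bind DNA firmly, had 308, 441 and 758 against 215, 315 and 289 (log2 fold change -0.80 (SE 0.60)). Gatad2b, also of NuRD, was listed at 0 in control replicate 2 and low-sodium replicates 1 and 3. Ep300, the acetyltransferase that many of these factors draw in, was the most abundant per kilobase and had a log2 fold change of -0.15 (SE 0.67).

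Further factors of the macrophage lineage were lower in 15 of 30 tested genes (median -0.03), where 45.6% of all genes were lower. Egr1, an early response gene, was the most abundant per kilobase, with 43581, 140565 and 57702 against 37113, 68345 and 77272 normalized counts and a log2 fold change of -0.28 (SE 0.70). Myb, Tfec and Nr1h3 had the smallest unadjusted p-values and log2 fold changes of 1.33 (SE 0.93), -1.86 (SE 1.51) and 2.01 (SE 1.65), all with overlapping groups. AP-1 factors, which bind beside PU.1 and C/EBP sites, were lower in 6 of 10 tested genes (median -0.27), against the same 45.6%. Atf3 had 1404, 8804 and 2977 against 214, 1246 and 1417 normalized counts (log2 fold change -2.20 (SE 1.04)), Batf and Fosl2 had log2 fold changes of 2.36 (SE 1.79) and 0.69 (SE 0.65), and Jun, the most abundant, -0.70 (SE 0.71). No gene of either list passed the adjusted threshold and the groups overlapped in each. The study itself, which used DESeq2, listed Atf3 among the genes lower in E3–E12 diet mice. With 1 library left out the medians ran from -0.14 to 0.43 for the other family members, from -0.43 to 0.06 for the binding proteins, from -0.32 to 0.30 for the lineage factors and from -0.32 to 0.07 for AP-1, with the highest value without control replicate 2 (family and AP-1) or low-sodium replicate 1 (the other two). The floor on the mean was applied again in each such fit, so the family members and binding proteins tested changed slightly in number.

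Genes known to depend on the factors were looked at next, and 0 of them passed the adjusted threshold. Their counts stand beside the 45.6% of all genes that were lower, and their medians turned on single libraries. PU.1 targets were lower in 11 of 14 tested genes, with a median of -0.17. Groups did not overlap in 1 of 14, Tyrobp, and in 5.9% of all genes. With 1 library left out the median of the PU.1 targets ran from -0.53 (without low-sodium replicate 3) and -0.51 (without control replicate 1) to 0.35 (without low-sodium replicate 1), and it was 0.21 without control replicate 2 and 0.0024 without control replicate 3. Tyrobp had 182, 59.5 and 1494 normalized counts in the controls and was listed at 0 in every low-sodium library, so its fitted value depends on the added constant and is not given as a fold change, and its adjusted p was 0.9988 (limma). Ptprc, which encodes CD45, had 1636, 13189 and 3338 against 1082, 3433 and 2788 normalized counts (log2 fold change -0.93 (SE 0.94)). Csf1r had a log2 fold change of -0.28 (SE 0.83).

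Homeostatic genes known to need Sall1 were lower in 10 of 11 tested genes (median -0.31, largest difference -0.60 (SE 0.99) for Gpr34), and the groups overlapped in each. That median ran from -1.08 without control replicate 1 and -0.62 without low-sodium replicate 3 to 0.27 without low-sodium replicate 1, and it was 0.14 without control replicate 2, -0.06 without control replicate 3 and 0.40 with equal microglial marker levels. P2ry13 and Siglech had log2 fold changes of -0.44 (SE 0.87) and -0.40 (SE 0.83). Genes known to rise without Sall1 were lower in 2 of 4 tested genes: Msr1 had a log2 fold change of -1.05 (SE 0.90), Mrc1 -0.30 (SE 0.65) and Apoe 0.16 (SE 0.81). C/EBP targets were lower in 5 of 7 tested genes (median -0.49), with -0.96 (SE 0.92) for Lyz2, -0.74 (SE 0.83) for Lcn2, -0.99 (SE 1.18) for Il6 and -0.10 (SE 0.80) for Csf3r. Their median was -0.96 without control replicate 1, -0.10 without control replicate 2, -0.17 without control replicate 3 and 0.29 without low-sodium replicate 1. Without control replicate 2 or 3 it was taken over 6 genes, not 7, because the floor on the mean was applied again, so part of those shifts may come from the changed list. The list of Sall1-dependent genes shares members with the microglial markers, among them Siglech. All 18 microglial markers had a lower mean log2 level in the low-sodium libraries (median -0.29), as did 10 of 11 homeostatic genes and 7 of the 9 factors. No standard error was computed for these medians, and that of a single gene (median 0.85 over all genes tested) does not measure their spread. Some single genes differed by more than the medians, with -6.99 for Mef2c, -1.25 for Cebpa and 0 counts of Tyrobp in every low-sodium library.

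**Figure D4:**
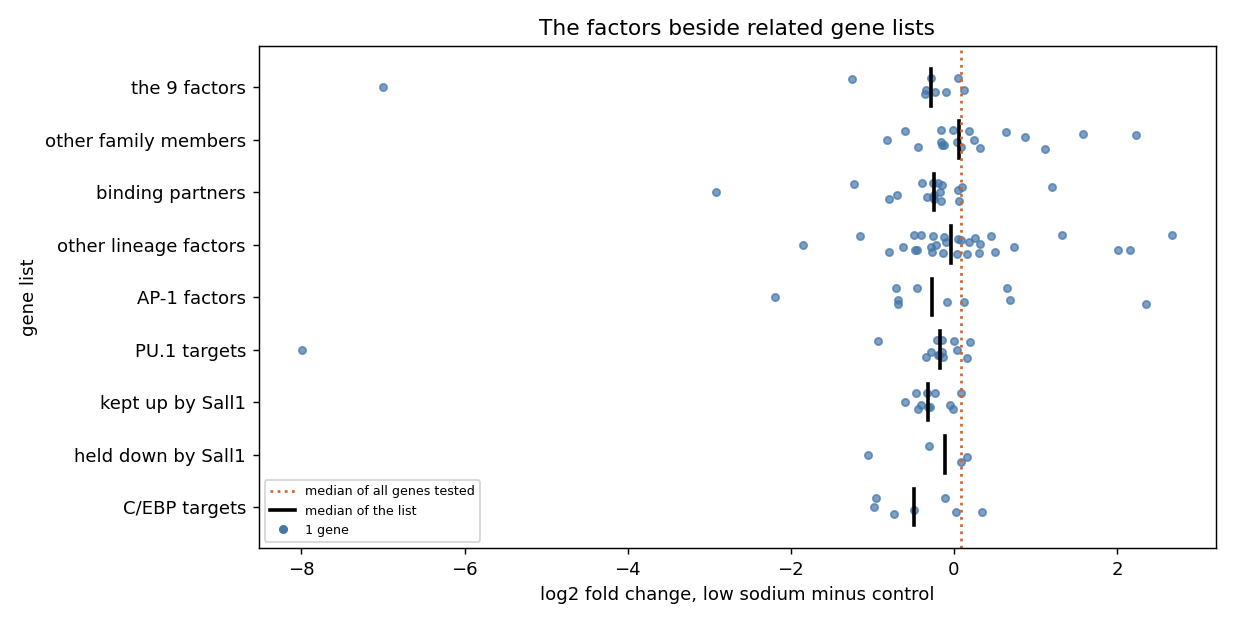
Log2 fold change, low sodium minus control, of every tested gene in the 9 factors and 8 related lists. Blue points are genes, black bars list medians and the dotted line the median of all genes tested, 0.09; most points lie within 1 unit of 0, and Mef2c and Tyrobp are the 2 points at the far left, whose place depends on the constant added before the logarithm.

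Direction depended on single litters for most factors. With 1 library left out in turn, Sall1 ranged from -0.74 to 0.23, Irf8 from -1.24 to 0.63, Runx1 from -0.52 to 0.29 and Sall3 from -0.38 to 0.32. Mef2c, Cebpa and Cebpb stayed below 0 in all 6 such fits, from -10.43 to -5.05, from -2.23 to -0.039 and from -0.66 to -0.068. With a standard error between 0.62 and 1.16 for the 8 factors other than Mef2c, the 95% interval of each contained a difference of 1 unit in both directions, so changes of that size were not detectable.

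**Figure D5:**
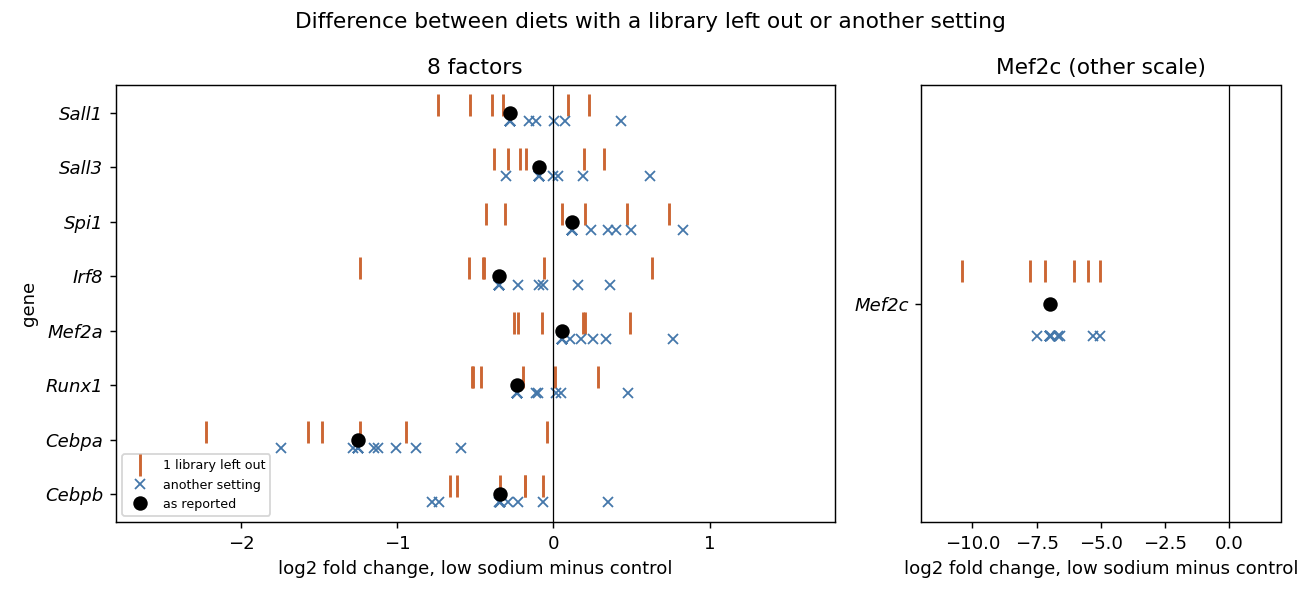
Log2 fold change of each factor as reported (black), with 1 library left out (orange ticks) and under other settings of scaling, filter, constant, weighting or block (blue crosses). The marks of 6 factors straddle 0 when a library is left out, and Mef2c, on its own scale, stays between -10.43 and -5.05.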

How the data were processed

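RNA-seq of pooled microglia from 3 control and 3 low-sodium litters was analysed. Per the submitters' processing notes, the authors used FastQC, STAR, featureCounts, DESeq2 and GRCm38. The authors deposited one signal per gene and library, counts scaled between libraries (normalized counts), not raw counts. The name of the table also refers to surrogate variables, and the sources used here do not describe such a step. Median-of-ratios factors computed from it were 1.015 in every library. Totals were 9407141 to 17204618.

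Gene names and exons came from GENCODE M21. Genes with a mean of at least 10 over 6 libraries (18007) were compared as log2(normalized count + 1) with limma 3.58.1 in R 4.3.3 (two-sided, constant prior, Benjamini-Hochberg, threshold 0.1). The fit was tested on simulated data with less spread between libraries than the factors had here. That test therefore does not show which changes could be found in these libraries. limma took the place of the authors' count test, which needs raw counts. An exact permutation test was used for single genes. The scaling, filter, constant, weights, block and left-out libraries were varied.

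The 9 factors and the lists were chosen with earlier results of these data known. All 9 factors were named, as were, from each list, the 3 genes of smallest unadjusted p and the most abundant per kilobase, and for Spi1, Irf8, Sall1 and Mef2c the 3 nearest profiles. Mef2d and the genes listed at 0 were named after their values were seen. Some genes that this rule names are not reported here. Motifs and shared windows were counted in Python 3.11.15 with pandas 2.3.3.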

Additional observations from a re-analysis of the deposited data

How the results depend on the processing

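None of the 9 factors passed the adjusted threshold under any of 18 alternatives (17 for Cebpb, whose mean is under 50). Mef2c and Cebpa kept their sign in all of them. Signs that turned outside the left-out libraries were 0.0298 for Sall3 with equal totals, 0.43, 0.62, 0.36, 0.48 and 0.35 for Sall1, Sall3, Irf8, Runx1 and Cebpb with equal microglial marker levels, 0.0057, 0.19 and 0.049 for Sall1, Sall3 and Runx1 with the same scaling without Tyrobp (chosen after seeing the data), and 0.076, 0.16 and 0.017 for Sall1, Irf8 and Runx1 with array weights. Both marker scalings move the median of all genes, to 0.76 and 0.35, and the cause of the other turns was not tested. With 1 library left out the values ranged from -0.74 to 0.23 (Sall1), -0.38 to 0.32 (Sall3), -0.43 to 0.74 (Spi1), -1.24 to 0.63 (Irf8), -0.25 to 0.49 (Mef2a) and -0.52 to 0.29 (Runx1). Over all genes 1 passed with a mean of at least 50 (Prdm4) and 5 with array weights (Slc4a1ap, Tyrobp, Prdm4, Mynn and Gm12666). The number with an unadjusted p under 0.05 was 207 with that filter, 491 with quantile normalization, 199 and 136 with the marker scalings, 1205 with array weights and 276 to 539 with a library left out. Deviations of same-numbered libraries correlated at 0.26, 0.035 and 0.142, and those of differently numbered libraries at -0.251 to 0.087. Whether the replicate numbers pair the libraries is thus not settled. With the replicate number as a block, 0 genes passed the threshold. The number with an unadjusted p under 0.05 was then 468, against 327 without the block. The block cannot move a fold change in this balanced design, and the unadjusted p of Mef2c (limma) was 0.0136 with it and 0.0445 without it. Low counts, as for Cebpa and Cebpb, limit what can be seen at this depth.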
